A study of Mus musculus with 59 samples.

Results

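The expression of 10 genes that mark pluripotent cells was followed in cultured neurons: Pou5f1, Nanog, Sall4, Esrrb, Utf1, Zfp42, Tdgf1, Lin28a, Dppa5a and Dppa4. They are 10 of the 27389 gene entries of the culture data. Of these, 9 were found by a symbol among the deposited aliases, and Dppa5a, deposited under the older symbol Dppa5, was found by its Entrez ID. The study grew neurons and glia as partners in sandwich cultures, took RNA from 1 partner at a time, and read it by RNA sequencing at days 3, 7 and 14. Neurons and glia were each either wild type or mutant, where mutant means carrying SOD1_G93A, a human SOD1 allele that causes a familial form of the motor neuron disease ALS, and all 4 pairings were made. The data hold 20 neuron libraries (9 mutant, 11 wild type) and 23 glia libraries, with 1 or 2 libraries for each pairing and day. Another 16 libraries came from spinal cord of mutant and wild-type mice at 4, 8, 12 and 17 weeks of age. The labels give neither the promoter of the transgene nor the source of the neurons. As background, the published study is known for motor neurons differentiated from mouse embryonic stem cells. No label says how many cell lines stand behind each genotype, so line and genotype cannot be told apart. Nor do the labels say whether replicates are separate cultures, so p-values measure the spread between these libraries, which may be technical.

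Pluripotent stem cells are kept in their state by a small network of transcription factors that activate one another. Pou5f1 (Oct4) and Nanog stand at its core, Sall4 and Esrrb bind many of the same genes, and Utf1 and Zfp42 (Rex1) are chromatin- or DNA-associated proteins of undifferentiated cells. Tdgf1 (Cripto) is a cell-surface co-receptor of Nodal signalling, Lin28a is an RNA-binding protein that blocks let-7 maturation, Dppa5a is an RNA-binding protein of the KH family, and Dppa4 is a chromatin-associated protein. Core genes such as Pou5f1 and Nanog are normally shut down as stem cells become neurons. That does not extend to every member: Esrrb and Tdgf1 were above 0 in all 16 spinal cord libraries. Signal from these 2 genes is therefore not by itself a sign of pluripotent cells.

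The values are RPKM, a read density per length of gene and per sequencing depth, rescaled between libraries by median-of-ratios factors, and all values below are on that scale unless another is named. Neuron libraries held 6.17 to 28.6 M reads on gene entries, and glia libraries 3.01 to 20.9 M. In the 20 neuron libraries 3 reads correspond to a value of 0.0742 to 0.297 for Pou5f1 and of 0.169 to 0.676 for Dppa5a, so lower values rest on fewer than 3 reads. In bulk RNA, fewer cells of a type and less RNA per cell cannot be told apart. The libraries labelled as neurons carried neuronal markers: all 10 motor neuron and all 10 pan-neuronal genes tested were higher in neurons than in glia, and all 8 astrocyte and all 8 microglia genes were lower. Slc18a3, the vesicular acetylcholine transporter, was higher by 5.05 on the log2 scale (SE 0.10, limma adjusted p = 5.335e-22) and the intermediate filament gene Prph (peripherin) by 5.86 (SE 0.18, adjusted p = 6.623e-19). Glial markers were still present in the neuron libraries, with the summed astrocyte list at 80.0 to 677. The mouse gene Sod1 ranged from 155 to 523 in mutant and from 145 to 513 in wild-type neurons, and since the allele is human, this checks the labels only in part.

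The 7 culture libraries numbered replicate 1 at day 3 stand apart from the rest, and 4 of them are neuron libraries. Their scale factors were 1.45 to 1.69 in neurons, against 0.806 to 0.973 in the other neuron libraries. Before any comparison, the summed value of the 10 genes was 122 to 214 in these 4 neuron libraries and 8.67 and 12.1 in the 2 neuron libraries numbered replicate 2 at day 3, so the replicates of the same day do not overlap. Each result that uses day 3 is therefore given with and without the replicate 1 libraries of that day.

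In the deposited coordinates (mm9, per the submitters' processing notes), Pou5f1 lies at chr17:35642984-35647723 (plus strand), Nanog at chr6:122657507-122664652 (plus), Esrrb at chr12:87702067-87862578 (plus) and Dppa5a at chr9:78214859-78215985 (minus), so the members are spread over the genome. RefSeq promoters (assembly GRCm38.p6, a later build than the mm9 of the deposited data) were matched for 7 of the 10 genes, with 10 start sites. They were searched on both strands, over the 250 bases before the start, for the octamer ATGCAAAT, the SOX-type core CATTGT, the Esrrb-type element TCAAGGTCA, the KLF-type GGGTGTGG and the TATA box TATAAA. The octamer was found at 1 of the 10 starts, that of Zfp42, and in 1.60% of 32851 promoters of the same length. CATTGT was found at 4 starts, those of Nanog (2 starts whose windows overlap), Lin28a and Pou5f1 (the downstream one of its 2), and in 10.7% of all promoters. GGGTGTGG was found at Zfp42 alone among the members (3.20% of all promoters), and TCAAGGTCA (0.387%) and TATAAA (12.4%) at none. Only exact matches were counted, so a site that differs from a motif by 1 letter is neither counted nor marked. A match is a description of letters, not of binding. The upstream 250 bases of Nanog and Zfp42 are shown because they hold the SOX-type match and the octamer. Capitals mark the matches, which are reverse complements of the motifs as listed. The Nanog window lies at chr6:122707239-122707488 (plus strand) and that of Zfp42 at chr8:43307010-43307259 (minus strand).
Nanog: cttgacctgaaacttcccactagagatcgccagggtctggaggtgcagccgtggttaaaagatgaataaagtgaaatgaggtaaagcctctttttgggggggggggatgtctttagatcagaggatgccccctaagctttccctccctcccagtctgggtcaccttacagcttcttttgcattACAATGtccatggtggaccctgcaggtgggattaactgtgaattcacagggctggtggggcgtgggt
Zfp42: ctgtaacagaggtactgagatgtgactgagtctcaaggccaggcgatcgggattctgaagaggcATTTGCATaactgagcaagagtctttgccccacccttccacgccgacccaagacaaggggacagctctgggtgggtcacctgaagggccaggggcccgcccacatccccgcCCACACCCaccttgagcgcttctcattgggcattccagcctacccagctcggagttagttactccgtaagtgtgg

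At day 3 the factors of the pluripotency core were high in replicate 1 and low in replicate 2. Pou5f1 was at 18.4 and 9.44 in mutant neurons (with mutant and with wild-type glia) and at 10.03 and 10.25 in wild-type neurons in replicate 1, and at 0.634 (mutant) and 0.371 (wild type) in replicate 2, both with mutant glia. Nanog was at 16.9, 9.27, 9.38 and 7.08 in the same 4 libraries and at 0.209 and 0.319 in replicate 2. Utf1 was at 23.2, 9.86, 12.1 and 9.39, and at 0.490 and 0.431 in replicate 2. In all 3 genes every replicate 1 library lay far above both replicate 2 libraries, and the 2 genotypes overlapped.

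Dppa5a had the highest value of the 10 genes in each replicate 1 library of day 3, but not in replicate 2, where Esrrb and Tdgf1 exceeded it. It was at 110.7 and 65.1 in mutant and at 91.3 and 88.5 in wild-type neurons in replicate 1 of day 3, and at 0.892 and 1.01 in replicate 2. On the log2(value + 1) scale its replicate 1 libraries exceeded replicate 2 with the same partners by 5.88 (mutant neurons) and 5.52 (wild-type neurons). Sall4, at 3.37 to 6.32 against 0.230 and 0.331, and Lin28a, at 5.80 to 11.6 against 0.245 and 0.555, separated likewise. Zfp42 (0.688 to 1.74 against 0.0699 and 0.107) and Dppa4 (0.680 to 1.69 against 0 and 0.0651) did the same at lower values.

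Esrrb and Tdgf1 kept a clear signal in replicate 2. Esrrb was at 8.58, 7.35, 15.6 and 12.3 in replicate 1 and at 3.17 (mutant) and 6.48 (wild type) in replicate 2. Tdgf1 was at 14.9, 8.77, 17.1 and 11.1 in replicate 1 and at 2.59 and 2.59 in replicate 2. Esrrb relative to Pou5f1 was 0.465 to 1.56 in replicate 1 and 5.002 and 17.5 in replicate 2, so the mix of the members differed between the replicates as well as their sum. Of the 9 members tested across all neuron libraries, 8 were more than 2-fold higher (log2(value + 1) over 1) in replicate 1 than in replicate 2 in both pairings compared, against 3.67% of the 14866 entries tested. Zfp42 is the exception, at 1.31 and 0.66 on the log2 scale.

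**Figure D1:**
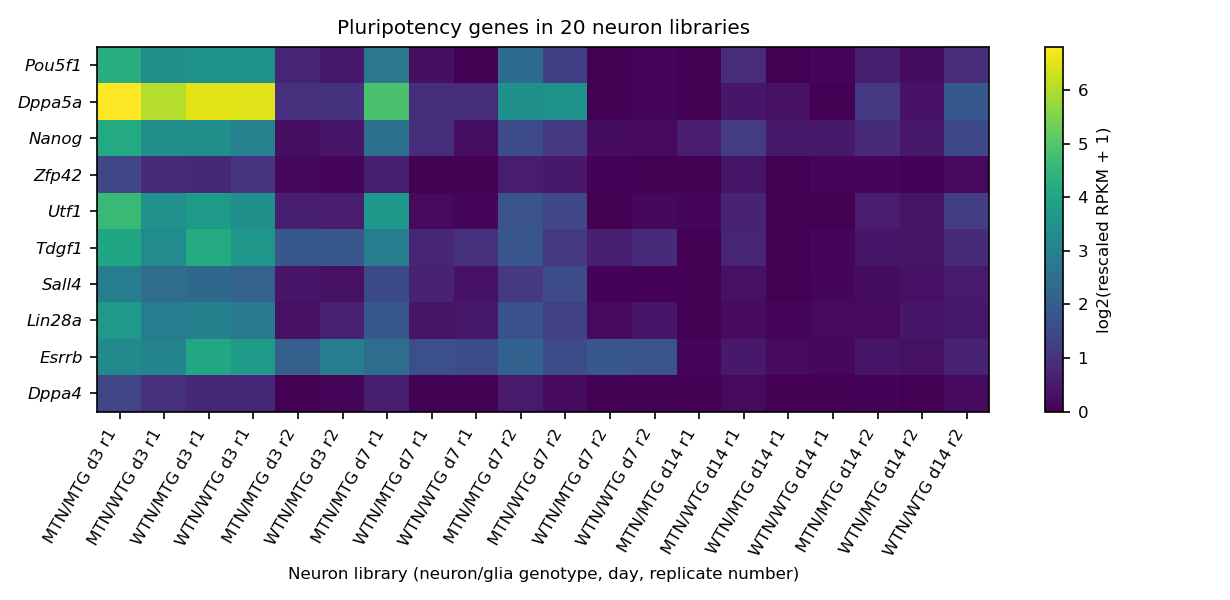
Level of each of the 10 genes (rows) in each of the 20 neuron libraries (columns, labelled by neuron and glia genotype with MT for mutant and WT for wild type, day and replicate number), as log2(rescaled RPKM + 1) by colour. The 4 replicate 1 libraries of day 3 hold the 4 highest values of each gene except Utf1, which was also high (11.4 RPKM) in mutant neurons on mutant glia at day 7, replicate 1, with Dppa5a at 65.1 to 110.7 RPKM.

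Some other marker lists moved with the members between the replicates of day 3. The summed list of other pluripotency genes was 101 to 173 in replicate 1 and 25.2 and 26.2 in replicate 2, the cell division list 149 to 193 against 65.2 and 68.4, and the mesoderm list 5.31 to 10.04 against 0.861 and 1.06. Lists of other cell types separated as well: neural progenitor at 72.9 to 114 against 39.9 and 54.4, microglia at 205 to 312 against 88.7 and 129, fibroblast at 66.8 to 111 against 32.7 and 47.3, and astrocyte at 113 to 203 against 80.0 and 94.2. The motor neuron list overlapped, at 1213 to 1774 against 1300 and 1896. Their part in the members' values was not tested.

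At day 7, 9 of the 10 genes had higher values in each mutant than in each wild-type neuron library, although the fit over all neuron libraries called none of the 8 of them it tested. Pou5f1 was at 5.52 and 4.21 in mutant neurons with mutant glia, at 1.39 in mutant neurons with wild-type glia, and at 0, 0, 0.0844 and 0.222 in the 4 wild-type libraries. Dppa5a was at 28.0, 9.75 and 10.2 in mutant neurons and at 0 to 0.853 in wild-type neurons. Utf1 was at 1.71 to 11.4 in mutant neurons and at 0 to 0.129 in wild-type neurons. Mutant and wild-type libraries did not overlap for these genes, and the highest mutant value came from replicate 1 with mutant glia.

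The same order held for Nanog (1.18 to 4.78 against 0.125 to 0.841), Sall4 (1.21 to 1.94 against 0.0395 to 0.572), Lin28a (1.54 to 2.69 against 0.136 to 0.348), Tdgf1 (1.17 to 6.23 against 0.490 to 0.943), Zfp42 (0.376 to 0.522 against 0 to 0.0496) and Dppa4 (0.144 to 0.496 against 0 to 0.0370). Esrrb was the only member whose groups overlapped, at 1.98, 3.36 and 4.35 in mutant and at 1.99 to 2.601 in wild-type neurons. In all, 8 of the 9 members tested had all 3 mutant libraries above all 4 wild-type libraries, where 7.59% of the 14866 entries tested did so. Dppa4, which reached a value of 1 in only 1 neuron library, is outside that count because it did not pass the filter on low values.

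**Figure D2:**
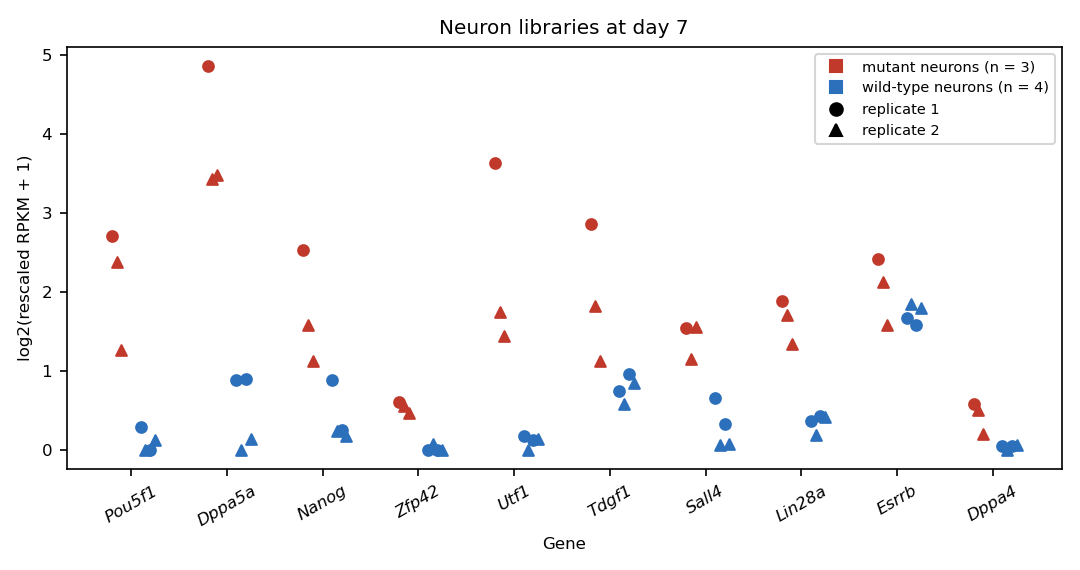
Level of each gene at day 7 as log2(rescaled RPKM + 1), with 1 point per neuron library, coloured by neuron genotype and shaped by replicate number. The 3 mutant libraries lie above the 4 wild-type libraries for each gene except Esrrb, where the ranges of 1.98 to 4.35 and 1.99 to 2.601 RPKM overlap.

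The fitted day 7 difference, mutant minus wild type, was 3.34 for Dppa5a (SE 1.41, limma adjusted p = 0.42), 1.96 for Utf1 (SE 0.93, adjusted p = 0.502), 1.80 for Pou5f1 (SE 0.80, adjusted p = 0.451) and 0.20 for Esrrb (SE 0.32, adjusted p = 0.921) on the log2(value + 1) scale. Of the 9 members tested, 0 passed (limma, 2 at an unadjusted p under 0.05) and 9 had a positive difference with a median of 1.21, against a median of 0.03 over all entries and 0.0269% of entries called. The standard error is estimated over all neuron libraries, including the replicates of day 3. Without the replicate 1 libraries of day 3 the differences were the same and the errors smaller, Pou5f1 at 1.80 (SE 0.23, limma adjusted p = 0.030) and Lin28a at 1.22 (SE 0.15, adjusted p = 0.029) passed, and 2 of 8 members tested were higher against 0.0957% of entries. In those 16 libraries both genes reach a value of 1 only in the 3 mutant libraries of day 7, so the filter on low values let them in through the group where they are high. With no filter, a setting added after the data were seen, 4 of 10 members passed (Pou5f1, Lin28a, Zfp42 and Dppa4), against 0.491% of entries. Fitted on the 7 libraries of day 7 alone, 0 of 8 members passed, with a median difference of 1.215. Of them 7 had an unadjusted limma p under 0.05, where 1440 of 13894 entries did. Except for Esrrb, these members reached a value of 1 only in mutant libraries there. The filter thus let them in through the group where they are high, so this count is no support. Without mutant neurons on mutant glia, replicate 1 of day 7, 275 of 14843 entries were called at day 7 in place of 4, and 0 of 9 members (limma, 0 at an unadjusted p under 0.05). At day 7 fibroblast markers also separated the genotypes, with a summed value of 96.5 to 246 in mutant and 284 to 502 in wild-type neurons, while the mesoderm list was 3.73 to 26.7 against 3.03 to 4.75. The summed list of other pluripotency genes overlapped, at 54.0 to 196 in mutant and 40.7 to 101 in wild-type neurons. This sum is a weak guide to pluripotent cells, since its median was 142 in the glia libraries and 102 in the neuron libraries. Of the 24 genes of that list tested 0 passed, with a median difference of 0.40. The part of these lists in the members' difference was not tested.

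Over all days, no member passed the test of mutant against wild-type neurons. The differences ran from -0.17 for Esrrb (SE 0.19) to 1.01 for Dppa5a (SE 0.84), 8 of 9 were positive with a median of 0.49, and 0 of 9 passed (limma, 0 at an unadjusted p under 0.05), where 2.92% of entries were called. Without the replicate 1 libraries of day 3, Pou5f1 alone passed, at 0.88 (SE 0.16, adjusted p = 0.049), of 8 members tested, against 0.759% of entries called higher. Without those libraries Pou5f1 reached a value of 1 only in mutant libraries of day 7. The filter thus let it in through the group where it is high, so this pass is no support. With no filter as well, 2 of 10 passed (Pou5f1 and Zfp42), against 1.22% of entries. Among the other lists, the neurofilament gene Nefm was lower in mutant neurons by 1.63 (SE 0.22, limma adjusted p = 0.00636). The astrocyte filament Gfap was higher by 1.61 (SE 0.29, limma adjusted p = 0.0169), and the matrix genes Dcn (-1.24) and Fn1 (-0.76) were lower. They were the only genes called in their lists: 1 of 10 pan-neuronal (list median 0.08), 1 of 8 astrocyte (0.27) and 2 of 6 fibroblast genes (-0.61). These single genes therefore do not describe a shift of the pan-neuronal or astrocyte list. None of the 24 other pluripotency genes tested passed in either direction, with a median difference of 0.16.

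No member passed the genotype test at day 3 or day 14. At day 3, 0 of 9 members passed (limma, 0 at an unadjusted p under 0.05), with 0.128% of entries called, and the largest difference was that of Esrrb, -0.75 (SE 0.35, adjusted p = 0.783). At day 14, 0 of 9 members passed (limma, 0 at an unadjusted p under 0.05), with 0.0404% of entries called. There Pou5f1 was at 0 to 0.816 in mutant and 0 to 0.827 in wild-type neurons and Dppa5a at 0 to 1.21 and 0 to 2.69. Whether the genotype difference itself changed between day 3 and day 14 was tested directly, and 0 of 9 members passed (limma, 0 at an unadjusted p under 0.05), where 0 of 14866 entries were called (0%). Leaving out the replicate 1 libraries of day 3 sets 1 mutant against 1 wild-type library there, both with mutant glia. The tests at day 3 and of the change then cover only those pairings and cannot settle a difference. Without the replicate 1 libraries of day 3, 0 of 8 members passed at day 3 (limma, 1, Esrrb, at an unadjusted p under 0.05), at day 14 or in the test of the change (limma, 0 at an unadjusted p under 0.05 in both), and 0% of entries were called at day 3 and in the test of the change.

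No member passed the test of the glia partner's genotype. At day 3 the pairings with wild-type glia had replicate 1 only, and those with mutant glia had both replicates. In wild-type neurons the summed value was then 150 with wild-type glia, and 168 and 12.1 with mutant glia. Partner and replicate therefore cannot be fully told apart in these differences. In wild-type neurons the difference between mutant and wild-type glia was -0.60 for Pou5f1 (95% interval -1.98 to 0.77) and -1.14 for Dppa5a (-3.57 to 1.29), and in mutant neurons it was -0.06 (-1.62 to 1.496) and -0.46 (-3.21 to 2.30). In each comparison 0 of 9 members passed (limma, 0 at an unadjusted p under 0.05), and 0% of entries were called. Without the replicate 1 libraries of day 3, 0 of 8 members passed in either (limma, 0 at an unadjusted p under 0.05), against 0% of entries in wild-type and 0.00683% in mutant neurons. Without those libraries no wild-type glia pairing is left at day 3, so the comparison covers days 7 and 14 only. The direction in mutant neurons then turned, from 3 of 9 members positive (median -0.09) to 7 of 8 (median 0.30). Mutant neurons with wild-type glia had only replicate 2 at day 7 and only replicate 1 at day 14. Partner and replicate are thus mixed on these days too, and the turn cannot be read as an effect of the partner. The intervals over all libraries are wide, so the test does not show that the partners act alike.

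**Figure D3:**
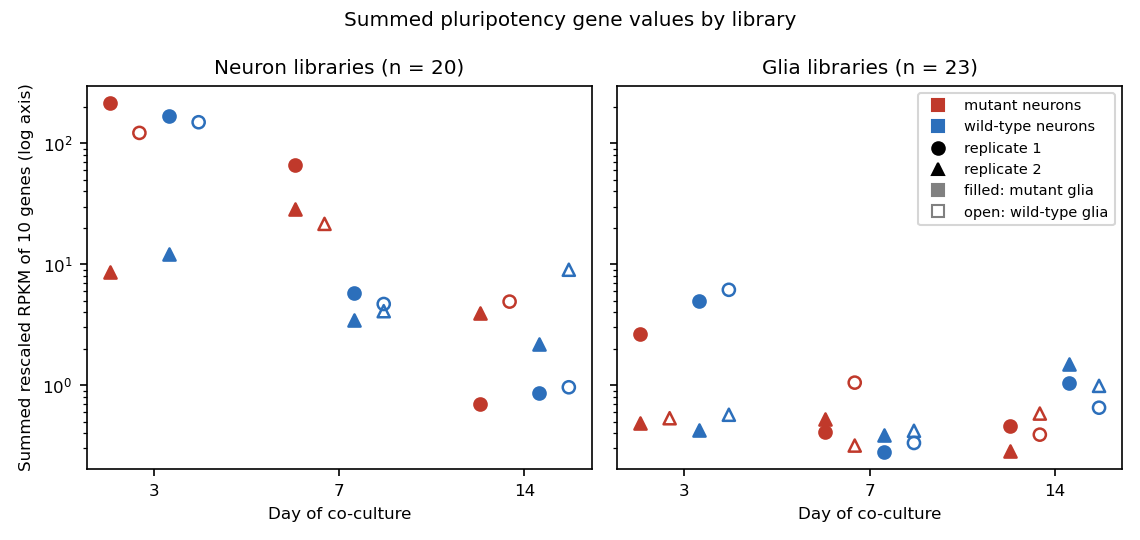
Sum of the 10 genes' rescaled RPKM in each library on a log axis, by day, for neurons (left) and glia (right), with neuron genotype by colour, replicate by shape and glia genotype by fill. In neurons the sum is 122 to 214 in replicate 1 of day 3, 21.6 to 65.9 in mutant and 3.49 to 5.77 in wild-type neurons at day 7, and 0.700 to 9.01 at day 14; in glia it is above 2 only in replicate 1 of day 3.

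From day 3 to day 14 each of the 9 members tested fell, against 33.4% of entries called lower (63.2% called in either direction), but for most of them the fall rests on replicate 1 of day 3. The median change was -2.40 on the log2(value + 1) scale, from -0.62 for Zfp42 (SE 0.20, adjusted p = 0.0174) to -4.48 for Dppa5a (SE 1.04, adjusted p = 0.00282). Zfp42 passed the filter on low values only through 2 replicate 1 libraries of day 3, so its fall is no support. With no filter, 9 of 10 members fell, against 25.7% of entries, with Nanog at an adjusted p of 0.051. Leaving out the 4 replicate 1 libraries keeps 1 day 3 library of each neuron genotype, both with mutant glia. The comparison then covers only the pairings with mutant glia, not all 4 pairings. Without the 4 replicate 1 libraries, 2 of 8 members tested fell, Esrrb by 2.23 (SE 0.19, adjusted p = 3.225e-05) and Tdgf1 by 1.66 (SE 0.30, adjusted p = 0.00137), with 29.7% of entries called lower. With no filter as well, 2 of 10 fell, against 22.0% of entries. Pou5f1 then had a change of -0.38 (SE 0.26, adjusted p = 0.228) and Nanog of 0.23 (SE 0.34, adjusted p = 0.578). Esrrb is the member with the clearest fall in both cases: it was at 3.17 to 15.6 in the 6 libraries of day 3, 1.98 to 4.35 at day 7 and 0.0935 to 0.566 at day 14, with no overlap between day 7 and day 14. Motor neuron markers fell in the same comparison (9 of 10, median -2.07) and 6 of 8 astrocyte markers rose (median 2.69). Their part in the members' fall was not tested.

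**Figure D4:**
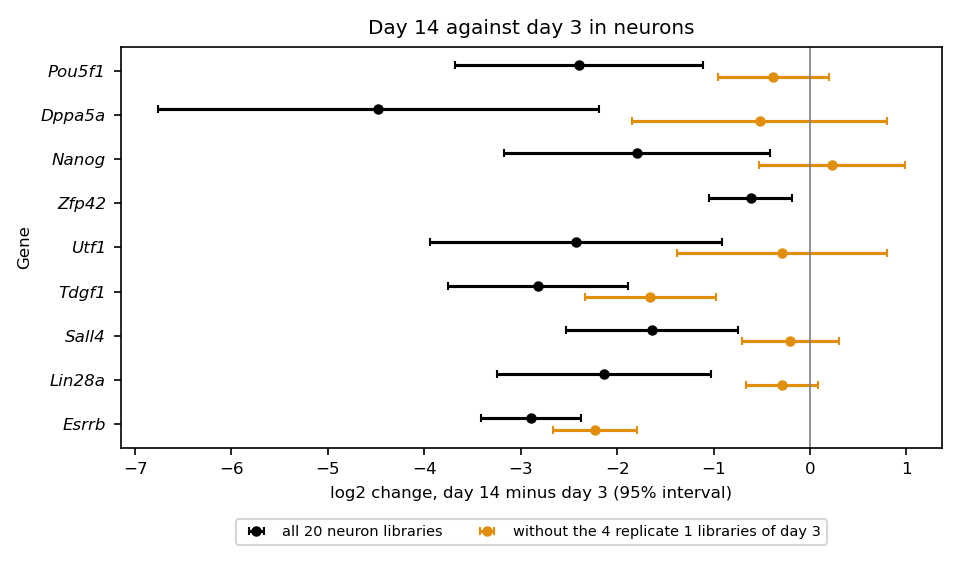
Change from day 3 to day 14 in neurons for the 9 genes tested, on the log2(value + 1) scale, with bars for the 95% interval, for all 20 neuron libraries (black) and without the 4 replicate 1 libraries of day 3 (orange). The orange points cover only the pairings with mutant glia, with 1 day 3 library of each neuron genotype. Only Esrrb and Tdgf1 keep an interval below 0 without those libraries; Zfp42 has no orange point because it did not pass the filter on low values.

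The glia libraries served as a reference and held little signal from these genes. In 23 glia libraries Pou5f1 was at 0 to 0.696 (median 0), Dppa5a at 0 to 1.99 (median 0), Lin28a at 0 to 0.135 and Esrrb at 0.0200 to 0.503. The highest glial sums of the 10 genes, 2.65 to 6.15, were in replicate 1 of day 3, and the other 20 glia libraries had sums of 0.282 to 1.48. Glia libraries were matched to the neuron library of the same pairing, day and replicate number, though no label says that these shared a culture. In the 3 glia libraries of replicate 1 of day 3 the sum was 1.24%, 2.96% and 4.11% of that in the matched neuron library. The pan-neuronal list was 2.18%, 1.60% and 2.58% of its value there. At day 14, where the neuron sums were low, the glial sum was 65.6%, 67.3%, 67.8% and 120% of the matched neuron sum in 4 of 7 pairs and 7.25% to 10.9% in the other 3. These shares depend on the match, since the neuron sums of mutant neurons with mutant glia were 0.700 and 3.92 at day 14. Whether these reads come from neurons was not tested. In neurons minus glia, averaged over days, all 9 members tested were higher, by a median of 1.30 on the log2 scale, from 0.39 for Zfp42 (SE 0.07, limma adjusted p = 5.088e-05) to 2.33 for Dppa5a (SE 0.42, adjusted p = 2.321e-05), against 39.8% of entries called higher and 78.5% called in all. Without the replicate 1 libraries of day 3, 8 of 8 members tested were higher, with a median of 0.65, against 37.5% of entries. Of these members only Dppa5a (3 libraries) and Nanog (1 library) reached a value of 1 in glia, all in replicate 1 of day 3. The filter needs 2 libraries, so the members other than Dppa5a passed it through neuron libraries. Without the replicate 1 libraries of day 3, Dppa5a did so too. These counts are therefore no support. With no filter, 10 of 10 members were higher, against 33.9% of entries, and 10 of 10 without the replicate 1 libraries of day 3, against 30.9%. Other pluripotency genes were mixed, with 17 of 24 tested higher and 5 lower: Tfcp2l1 was lower by 2.46 and Trim71, an RNA-binding protein, higher by 1.22.

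In the 16 spinal cord libraries, deposited on another scale, most members were at or near 0. Pou5f1 and Dppa4 were 0 in each of them, and Dppa5a was above 0 in 1 of 16. Esrrb was at 0.766 to 1.76 (median 1.49) and Tdgf1 at 0.170 to 3.88 (median 1.93), both above 0 in 16 of 16. Nanog was at 0 to 0.162. Each genotype and age had 2 libraries, 1 with F and 1 with M in its title, so they are not plain replicates. No comparison was made.

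Over the 20 libraries the correlations of log2(value + 1) between the 9 members that passed the filter had a median of 0.94 (36 pairs, 0.69 to 0.98), and without replicate 1 of day 3 a median of 0.84 (0.17 to 0.95). These values share the libraries, their depth and their day, so they describe and do not test. Esrrb was least like the mean of the members, at 0.84, and 0.62 without those libraries. The 10 other genes most like that mean were Aqp3 (r = 0.98), L1td1, Mep1b, Dppa2, Foxh1, Arl14epl, Fgf4, Dnmt3l, Dusp9 and Ooep (r of 0.97 to 0.98), measured over the same 20 libraries. L1td1, an RNA-binding protein, ranged from 0 to 11.2, and Fgf4, a growth factor of pluripotent cells, from 0 to 2.06.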

How the data were processed

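The culture values are RPKM, as the authors deposited them; per the submitters' processing notes, Bowtie and mm9 were used. Whole reads came out of the RPKM for 99.947% of 22784 entries above 0 (tolerance 0.01 reads). The deposited spinal cord values are in another unit that is not named (some are below 0), so no test used them. Per the labels, RNA was purified on RNeasy columns after Trizol, and Illumina or Nextera libraries were made; which library used which kit is not stated. Values were rescaled by median-of-ratios factors over 43 culture libraries, because in the 7 libraries of day 3 replicate 1 the recovered reads exceed the total that the RPKM imply. Then log2(value + 1) was fitted with limma 3.58.1 in R 4.3.3, with 1 mean for each pairing and day, on entries at 1 or more in at least 2 libraries. For a pairing and day with a lone library, the spread comes from the other groups. A Benjamini-Hochberg adjusted p under 0.05 over all entries was called. The fit was also run on simulated data with independent noise, with changes put only in entries with a mean log2(value + 1) over 2. That run does not gauge the calls for members at lower levels. limma's voom on the recovered reads called 248 entries for genotype. Alternatives covered scaling, pseudocount, filter, libraries left out and a replicate block. The members and lists were chosen with earlier results of these data known. Genes named are the members, Sod1, up to 4 called genes of each list in 2 contrasts, and the 10 entries most like the members' mean.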

Additional observations from a re-analysis of the deposited data

Results flagged for a closer look

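In groups of 4 neuron libraries, the highest or lowest value was set against the gap to the next (Dixon's 95% critical value 0.829); 6 of 20 groups tested passed. Chance gives about 1 in 20 for independent groups, but these are 10 genes that vary together in the same 2 sets of libraries, so the number is not read against it. Wild-type neurons with wild-type glia, replicate 2 at day 14, stood above the other 3 for Dppa5a (2.69 against 0.269), Nanog (1.76 against 0.392) and Dppa4 (0.156 against 0). At day 7 in wild-type neurons, Nanog was 0.841 in replicate 1 with mutant glia (next 0.186), and in replicate 2 with mutant glia Zfp42 was 0.0496 (the others 0) and Dppa4 0 (next 0.0324). The Zfp42 value rests on 2 reads, the Dppa4 value of day 14 on 3, and the Dppa4 values of day 7 on 0 or 1. Where the other 3 values are 0, as for Zfp42 at day 7 and Dppa4 at day 14, any value above 0 passes.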

How the results depend on the processing

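The number of members called stayed within 1.5 times under the other scalings, pseudocounts, filter and voom, but the size of the differences did not: the members' median at day 7, 1.21, was 2.50 with a pseudocount of 0.1 and 3.62 with voom, and that of neurons minus glia, 1.30, was 2.80 and 3.86. Without the day 3 replicate 1 libraries the number called was 1 of 8 for mutant against wild-type neurons, 2 of 8 for the same at day 7 and 2 of 8 for day 14 against day 3, where Nanog changed sign to 0.23. Leaving out each library in turn gave 7 to 9 for day, 8 to 9 for neurons against glia and 0 to 0 for the other comparisons. With wild-type glia pairings alone, Esrrb at day 7 was -0.12 (limma adjusted p = 0.93). Entries called for genotype, 434 in the reported fit, numbered 12 on the deposited values, 248 with voom, 126 without the day 3 replicate 1 libraries, and 143 (without wild-type neurons on mutant glia, day 7 replicate 1) to 641 (without mutant neurons on mutant glia, day 7 replicate 1). The causes were not tested.

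The labels do not say that a replicate number marks a shared batch, and same-numbered neuron libraries deviated together in 6 of 7 pairs (correlation above 0.1; lowest 0.07, median 0.56), so not every pair passed and the neurons are not treated as paired; in glia 15 of 15 pairs did (lowest 0.23, median 0.71). With the replicate block, 6 of 9 members were called for genotype (1460 of 14866 entries) and 7 of 9 at day 7 (403 entries), all higher in mutants. Settings chosen after seeing the data gave 8 and 8 (replicate block, pseudocount 0.1), 7 and 8 (replicate block, voom; Esrrb 0.031 over all days), 1 and 2 (days 7 and 14 alone; Esrrb 0.12) and 2 and 4 of 10 (no day 3 replicate 1, no filter; day 14 against day 3, 2 of 10, Nanog 0.23). Low counts limit Dppa4 and Zfp42 most.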
